A study of Arabidopsis thaliana with 4 samples.

Results

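The flavonoid, anthocyanin and sinapate genes of Arabidopsis thaliana were compared between seedlings that carried the photolyase homology region of CRY1 with or without the G283E substitution. The set was chosen by locus code and holds 39 of the 27416 genes in the deposited tables. It comprises 6 enzymes of early flavonoid steps, 3 of late steps, 10 genes of decoration and transport, 11 activators, 4 repressors and 5 genes of sinapate ester synthesis. Messenger RNA from whole Col-0 seedlings was sequenced in 4 libraries, 2 per group. Every seedling had the cry1 mutant background, in which the endogenous blue-light receptor cryptochrome 1 is lacking, and a transgene under the 35S promoter. In the group CNT1 the transgene was 35S::CNT1-NLS-YFP, in which the amino-terminal photolyase-like region of CRY1 is fused to a nuclear import signal and to YFP, a fluorescent tag. In the group CNT1-G283E it was 35S::CNT1-G283E-NLS-YFP, identical but for the G283E exchange. Seeds lay in the cold for 3 days, received white light for 12 h and then stood in blue light of 15 μmol/m2/s for 4 days, on medium with 1% sucrose, for a growth time of 4.5 days. The 35S promoter is active in most cells, and whether each genotype is a single transgenic line is not given in the sources used here. A difference between the groups therefore cannot be told apart from an effect of insertion site or transgene level.

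Flavonoids are made from phenylalanine through the phenylpropanoid pathway. Early enzymes build dihydroflavonols and the colourless flavonols, which absorb ultraviolet light. Late enzymes convert dihydroflavonols into red anthocyanins, which are then glycosylated, acylated and stored in the vacuole. In Arabidopsis, the early genes are activated by MYB11, MYB12 and MYB111, and the late genes by a complex of a MYB of the MYB75 group, a bHLH protein and the WD40 protein TTG1. The sinapate branch draws on the same phenylpropanoid precursors and ends in sinapoylmalate, the main soluble ultraviolet screen of the leaf. Light, cryptochromes among its receptors, is a known inducer of many of these genes.

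Levels are given as RPKM, which divides reads by transcript length and by the depth of the library and so allows comparison between genes. The values rest on 28524534 and 28098772 reads in CNT1 replicates 1 and 2, and on 27065174 and 24436863 reads in CNT1-G283E replicates 1 and 2, depths recovered from the values themselves. A gene was tested if it reached 1 RPKM in at least 2 libraries. The test was limma on log2(RPKM + 1), log2 fold changes are positive where CNT1 was higher, and a gene was called at a Benjamini-Hochberg adjusted p under 0.05 over all 19201 genes tested. CRY1 itself was read at 823 and 825 RPKM in CNT1 and at 1152 and 1036 RPKM in CNT1-G283E. It was called lower in CNT1 (log2 -0.41, limma adjusted p = 0.000534). A gene-level value does not separate either transgene from the endogenous transcript, and thus gives no check of the labels. The replicates are labelled as separate samples and not as separate cultures, so p-values measure the spread between these libraries, which may be technical.

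Of the 39 genes, 27 were tested. Among them 5 were called higher and 13 lower in CNT1, which is 66.7% called, beside 60.0% of all genes tested (31.1% higher and 29.0% lower). The share called was thus near the background, and what the data show is how the calls fall over the steps of the pathway. Early steps were mostly higher in CNT1, with 4 of 6 called higher and 1 lower. Both tested late genes and all 4 tested sinapate genes were called lower. Of the 9 tested decorating genes 4 were lower and none was higher, and of 15 regulators 6 were tested, with 1 called higher and 2 lower. DFR, LDOX, UGT79B1, GSTF12, SPL9 and UGT84A3 passed the low-value filter through CNT1-G283E alone, so for these 6 genes a higher level in that group was a condition of being tested. With no filter, 38 of the 39 genes had a value to test, of which 5 were called higher and 15 lower, beside 47.1% of all genes called (24.1% higher and 23.0% lower). With limma-voom on the recovered reads 6 members were higher and 13 lower, beside 61.9% of all genes called (32.2% higher and 29.7% lower). The median log2 fold change was -0.26 over the 27 tested genes and 0.03 over all genes tested.

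**Figure D1:**
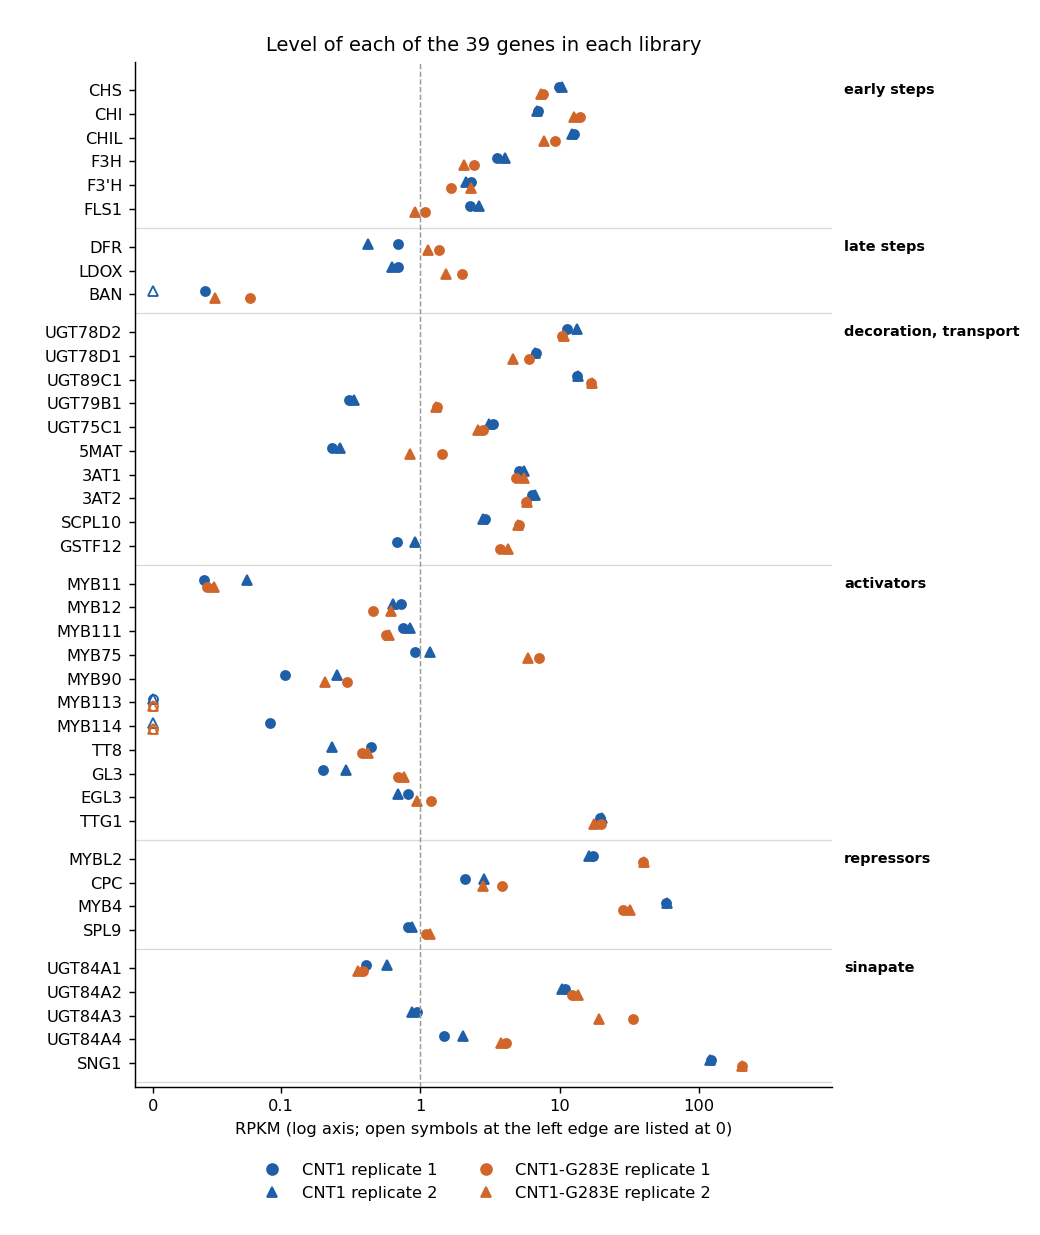
RPKM of each of the 39 genes (rows, grouped by role) in the 4 libraries on a log axis, with CNT1 in blue and CNT1-G283E in orange. SNG1 had the highest level in all 4 libraries, while most MYB and bHLH activators lay to the left of the dashed line at 1 RPKM.

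**Figure D2:**
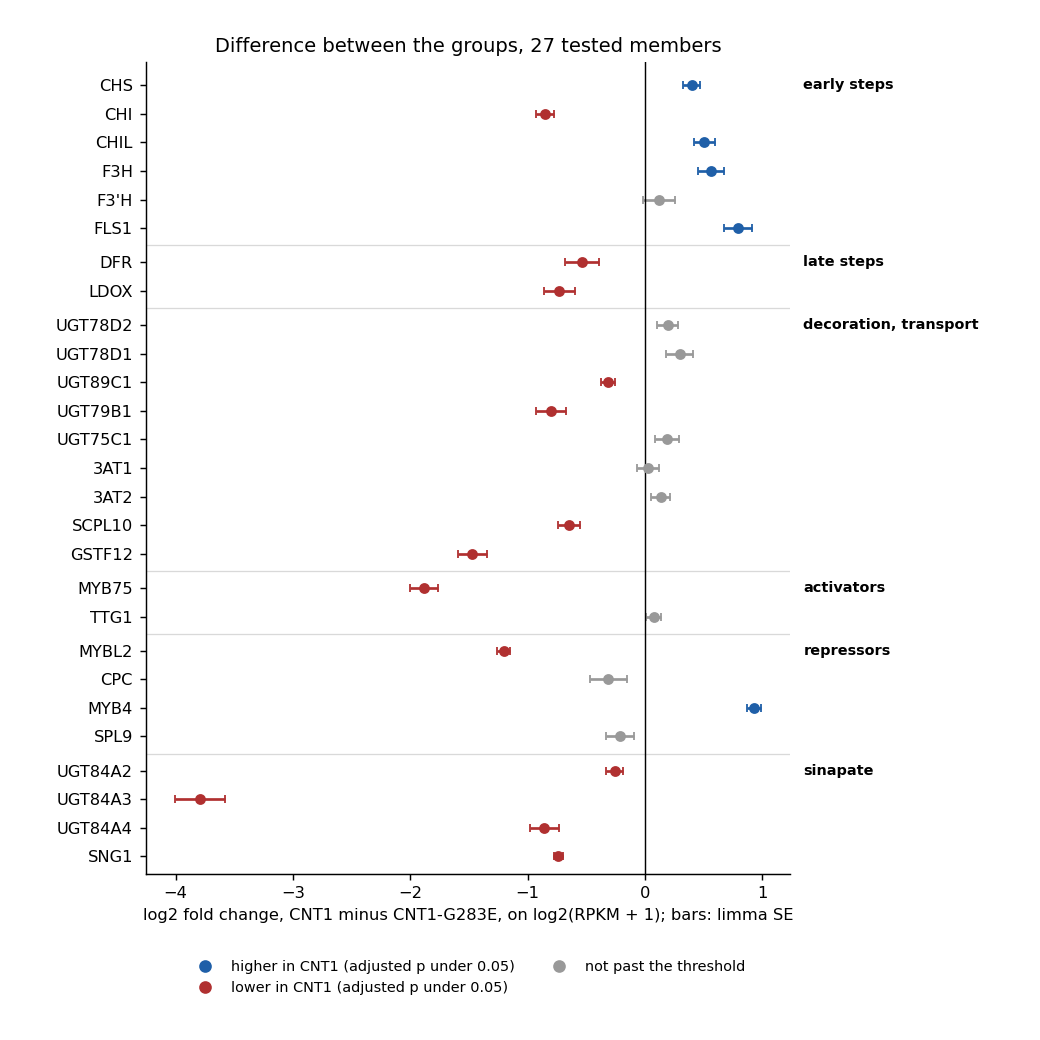
Difference between CNT1 and CNT1-G283E for the 27 tested genes, as log2 fold change (points) with the limma standard error (bars), blue and red for genes called higher or lower and grey for genes that did not pass. Of the 6 early genes 5 lay above 0, 4 of them called higher, whereas the late and sinapate genes shown lay below 0, UGT84A3 being the lowest at -3.79. DFR, LDOX and UGT84A3 passed the filter through CNT1-G283E alone, so for them a lower level in CNT1 was a condition of being shown.

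The same libraries differed in markers of organs and tissues. All 10 xylem and phloem markers were called lower in CNT1, with summed levels of 249 to 252 RPKM in CNT1 and 438 to 471 RPKM in CNT1-G283E. Of 11 root markers 9 were tested, 4 being lower and 1 higher, and the list summed to 170.2 to 171 RPKM in CNT1 and 369 to 399.7 RPKM in CNT1-G283E. The 8 photosynthetic leaf markers were all called higher, at 37085 to 37539 RPKM against 10880 to 11111 RPKM. Of 7 seed storage and oil-body markers 6 were tested and 5 were higher, summing to 84.7 to 88.3 RPKM in CNT1 and 27.2 to 37.0 RPKM in CNT1-G283E; of the 5, CRU2, a seed storage protein, passed the filter on low values through CNT1 alone (means of 8.22 against 0.162 RPKM). No marker in the 4 lists was listed at 0 in every library, so leaf, root, vascular and seed transcripts were all present in these whole seedlings. Fewer cells of a type and less RNA per cell cannot be told apart in such samples, and the part of tissue makeup in the results below was not tested.

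The entry enzyme CHS (chalcone synthase, AT5G13930, chromosome 5, 4488476 to 4490264 in TAIR10.1) stood at 9.88 and 10.4 RPKM in CNT1 and at 7.53 and 7.38 RPKM in CNT1-G283E. Both CNT1 libraries were above both CNT1-G283E libraries. The ratio of means was 1.36 and the log2 fold change 0.40 ± 0.073 (SE, n = 2 per group; limma adjusted p = 0.00216). CHIL, a non-catalytic relative of chalcone isomerase that raises flavonol output, stood at 12.7 and 12.2 RPKM against 9.22 and 7.75 RPKM, a ratio of 1.46. F3H, which makes dihydroflavonols, was read at 3.53 and 4.04 RPKM in CNT1 and at 2.43 and 2.06 RPKM in CNT1-G283E, a ratio of 1.69. In neither gene did the groups overlap, and both were called higher, with limma adjusted p of 0.00171 for CHIL and 0.00342 for F3H.

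FLS1, the main flavonol synthase, showed the largest rise of the early genes. It was read at 2.29 and 2.64 RPKM in CNT1 and at 1.08 and 0.92 RPKM in CNT1-G283E, a ratio of 2.46 (log2 0.79 ± 0.121, SE; limma adjusted p = 0.000789). The recovered reads were 186 in CNT1 and 69 in CNT1-G283E, a depth-corrected ratio of 2.45 with an exact 95% counting interval of 1.85 to 3.28. F3'H, which hydroxylates the B ring, gave 2.29 and 2.13 RPKM against 1.65 and 2.30 RPKM. Its groups overlapped and it was not called (log2 0.12 ± 0.134, SE; limma adjusted p = 0.469), and without CNT1-G283E replicate 1 its value was -0.04.

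CHI (chalcone isomerase, AT3G55120, chromosome 3, 20430059 to 20431597 in TAIR10.1), which closes the ring of the chalcone made by CHS, went the other way. It was read at 6.94 and 6.89 RPKM in CNT1 and at 14.1 and 12.6 RPKM in CNT1-G283E. Both CNT1 libraries lay at about the same level, below either CNT1-G283E library. The mean was 1.93-fold lower in CNT1 (log2 -0.85 ± 0.078, SE; limma adjusted p = 4.7e-05). Enzymes that act in consecutive steps, CHS and CHI, were thus called in opposite directions. The 6 early genes together summed to 37.6 and 38.3 RPKM in CNT1 and to 36.0 and 33.0 RPKM in CNT1-G283E.

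DFR (dihydroflavonol reductase, AT5G42800, chromosome 5, 17164093 to 17166032 in TAIR10.1), the entry to anthocyanins, was scarce in all libraries. It had 27 and 16 reads in CNT1 and 50 and 38 reads in CNT1-G283E, or 0.697 and 0.419 RPKM against 1.36 and 1.145 RPKM. The mean was 2.24-fold lower in CNT1, the counting interval of the read ratio running from 1.55-fold to 3.32-fold lower. DFR was called (log2 -0.54 ± 0.143, SE; limma adjusted p = 0.0131), but not without CNT1 replicate 2 (-0.41, adjusted p = 0.0884) or without CNT1-G283E replicate 1 (-0.47, adjusted p = 0.0585). LDOX, which makes the coloured anthocyanidin, was read at 0.697 and 0.623 RPKM in CNT1 and at 2.00 and 1.53 RPKM in CNT1-G283E. It was 2.67-fold lower (log2 -0.73 ± 0.134, SE; limma adjusted p = 0.00213). BAN, the anthocyanidin reductase of seed coat proanthocyanidins, had 1 and 0 reads in CNT1 and 2 and 1 reads in CNT1-G283E, at or under the floor of 3 reads per library that a value of 0 allows.

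Of the genes that act on finished anthocyanins, GSTF12 (TT19), a glutathione transferase needed to bring anthocyanins into the vacuole, had the largest difference. It was read at 0.677 and 0.916 RPKM in CNT1 and at 3.71 and 4.27 RPKM in CNT1-G283E. Both CNT1-G283E libraries were well above both CNT1 libraries, by a ratio of means of 5.01 (log2 -1.47 ± 0.124, SE; limma adjusted p = 3.00e-05). On the recovered reads, without the constant of 1 RPKM, limma-voom gave -2.30. UGT79B1, which adds xylose to the anthocyanin glucoside, stood at 0.306 and 0.334 RPKM against 1.31 and 1.29 RPKM, 4.07-fold lower in CNT1 (limma adjusted p = 0.000885). SCPL10, which transfers sinapate to anthocyanins, was read at 2.91 and 2.832 RPKM in CNT1 and at 5.10 and 5.02 RPKM in CNT1-G283E, 1.76-fold lower (limma adjusted p = 0.000528). The malonyltransferase gene 5MAT missed the filter, with 9 and 10 reads in CNT1 against 52 and 28 in CNT1-G283E. With no filter it was called lower (log2 -0.76 ± 0.138, SE; limma adjusted p = 0.00804).

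The other anthocyanin decorating genes did not share this pattern. UGT75C1, which adds a further glucose, was read at 3.34 and 3.09 RPKM in CNT1 and at 2.80 and 2.58 RPKM in CNT1-G283E (log2 0.19 ± 0.102, SE; limma adjusted p = 0.145). The coumaroyl transferases 3AT1 and 3AT2 were at 5.11 and 5.52 against 4.88 and 5.54 RPKM, and at 6.28 and 6.62 against 5.76 and 5.82 RPKM, and neither was called. Their coding sequences were 97.6% identical, with a shared run of 220 bases, so how reads were split between them is uncertain. The value of 3AT1, 0.03, turned to -0.02 without CNT1 replicate 2 and to -0.05 without CNT1-G283E replicate 1.

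Glycosyltransferases of flavonols shifted by small amounts and in both directions, and only UGT89C1 was called in the limma fit described above. UGT78D2, which glucosylates flavonols and anthocyanidins, was read at 11.3 and 13.4 RPKM in CNT1 and at 10.4 and 10.8 RPKM in CNT1-G283E, and was not called (log2 0.19 ± 0.088, SE; limma adjusted p = 0.0932), except without CNT1 replicate 1 (0.31, adjusted p = 0.0359). UGT78D1, a flavonol rhamnosyltransferase, gave 6.80 and 6.67 against 6.06 and 4.63 RPKM (log2 0.30 ± 0.116, SE; limma adjusted p = 0.0585). It was called higher without CNT1-G283E replicate 1 (0.46, adjusted p = 0.00551), with limma-voom on the recovered reads (0.34, adjusted p = 0.0264) and with the replicate number as a block (0.30, adjusted p = 0.0468). UGT89C1, another flavonol rhamnosyltransferase, was called lower at 13.3 and 13.6 against 16.7 and 17.2 RPKM (log2 -0.32 ± 0.059, SE; limma adjusted p = 0.00231).

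**Figure D3:**
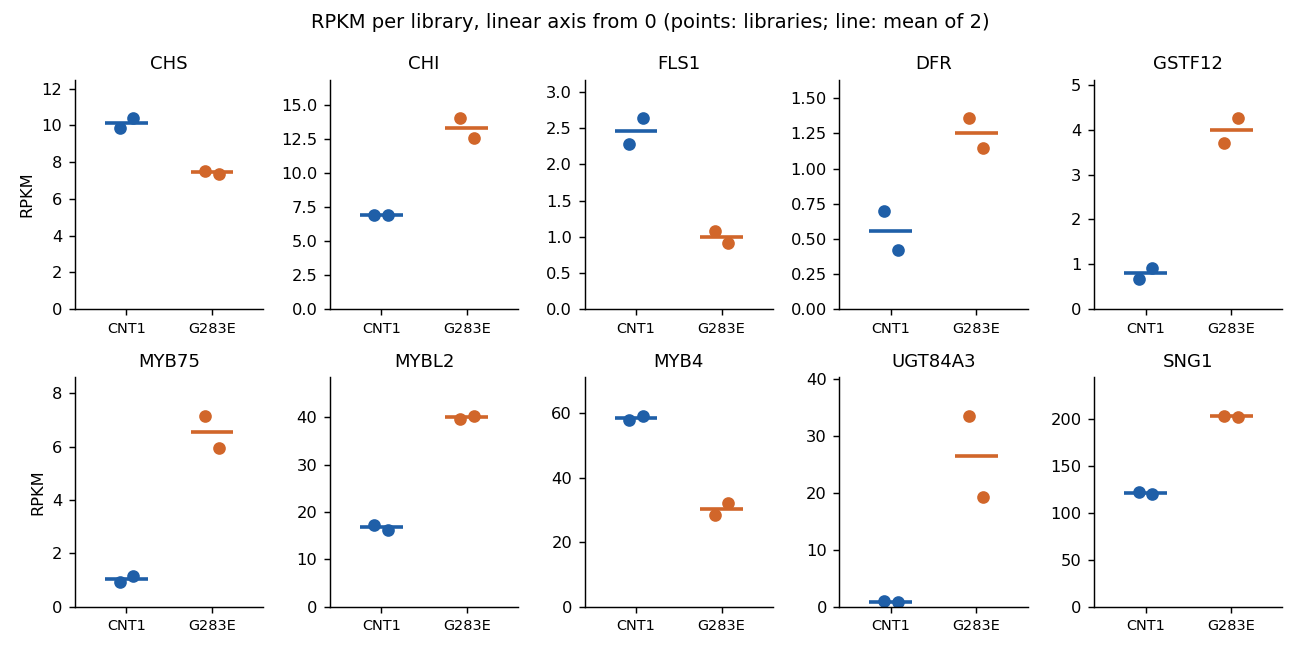
RPKM in each library (points) and the mean of 2 (line) for 10 genes of the pathway, each on its own linear axis from 0. CHS, FLS1 and MYB4 were higher in CNT1 and the other 7 genes higher in CNT1-G283E. All 10 are called genes, as were 60.0% of all genes tested. DFR, GSTF12 and UGT84A3 passed the filter through CNT1-G283E alone, so for them a higher level in that group was a condition of being tested.

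Among the activators, MYB75 (PAP1, AT1G56650, chromosome 1, 21233555 to 21235292 in TAIR10.1), a MYB factor that switches on anthocyanin genes, was lower in CNT1. It was read at 0.921 and 1.17 RPKM in CNT1 and at 7.16 and 5.95 RPKM in CNT1-G283E, from 24, 30, 177 and 133 reads. The groups stood far apart, with a ratio of means of 6.28 (log2 -1.88 ± 0.123, SE; limma adjusted p = 7.24e-06). The depth-corrected read ratio was 6.31-fold lower in CNT1, with an exact 95% counting interval of 4.71 to 8.59. Its relatives in the tandem group on chromosome 1 were barely detected: MYB90 had 10 reads in CNT1 against 13 in CNT1-G283E, MYB114 had 1 read in CNT1 and none in the other group, and MYB113 was listed at 0 in all 4 libraries. A count of 0 allows up to 3 reads per library. Coding identity of MYB75 to these 3 genes ran from 79.7% to 87.6%, with shared runs of at most 42 bases, while MYB90 and MYB114 shared a run of 67 bases.

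The partners of MYB75 differed among themselves. TTG1, the WD40 protein of the complex, was read at 19.5 and 20.1 RPKM in CNT1 and at 19.8 and 17.7 RPKM in CNT1-G283E, with overlapping groups (log2 0.07 ± 0.066, SE; limma adjusted p = 0.38; -0.003 without CNT1-G283E replicate 2). The bHLH genes were all under the filter. GL3 had 11 and 16 reads in CNT1 and 36 in each CNT1-G283E library, and with no filter it was called lower (log2 -0.47 ± 0.072, SE; limma adjusted p = 0.00451). EGL3 had 49 and 41 reads against 68 and 49, 1.43-fold lower per library depth with a counting interval of 1.08 to 1.90, and did not pass the test with no filter (limma adjusted p = 0.0918). TT8 had 23 and 12 reads against 19 and 19 (limma adjusted p = 0.551 with no filter). GL3 and EGL3 also act in root hair and trichome patterning, so their transcripts are not particular to anthocyanin-forming cells.

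The flavonol activators were low. MYB12 was read at 0.724 and 0.637 RPKM in CNT1 and at 0.458 and 0.62 RPKM in CNT1-G283E, and MYB111 at 0.75 and 0.843 against 0.565 and 0.594 RPKM. In both genes each CNT1 library was above each CNT1-G283E library, yet neither was called with no filter (limma adjusted p = 0.267 for MYB12 and 0.0853 for MYB111). The counting intervals of the read ratios, 0.834 to 1.96 and 0.903 to 2.12, included 1. MYB11 had 3 reads in CNT1 against 2 in CNT1-G283E.

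The repressors split. MYBL2 (AT1G71030, chromosome 1, 26795052 to 26796532 in TAIR10.1), a small MYB protein that blocks the anthocyanin complex, was read at 17.4 and 16.3 RPKM in CNT1 and at 39.7 and 40.4 RPKM in CNT1-G283E. It was 2.38-fold lower in CNT1 (log2 -1.20 ± 0.053, SE; limma adjusted p = 1.01e-06). MYB75, an activator, and MYBL2, a repressor of the same branch, were thus both lower in CNT1. MYB4 (AT4G38620, chromosome 4, 18053360 to 18055040 in TAIR10.1), a repressor known for holding down the phenylpropanoid gene C4H and sinapate esters, was higher. Its levels were 57.8 and 59.2 RPKM in CNT1 and 28.6 and 32.0 RPKM in CNT1-G283E, a ratio of 1.93 (log2 0.93 ± 0.060, SE; limma adjusted p = 6.76e-06).

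CPC, a repressor of the MYB complex best known from root hair patterning, was read at 2.10 and 2.86 RPKM in CNT1 and at 3.86 and 2.80 RPKM in CNT1-G283E. The groups overlapped and CPC was not called (log2 -0.31 ± 0.157, SE; limma adjusted p = 0.121), except without CNT1-G283E replicate 2 (-0.49, adjusted p = 0.0356). SPL9, which interferes with the MYB complex, stood at 0.817 and 0.877 against 1.11 and 1.17 RPKM (log2 -0.21 ± 0.121, SE; limma adjusted p = 0.167), and was called only in limma without the intensity trend (adjusted p = 0.0261).

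All 4 tested genes of the sinapate branch were called lower in CNT1, beside 29.0% of all genes tested. UGT84A3 passed the filter through CNT1-G283E alone, and UGT84A1 missed it. SNG1 (AT2G22990, chromosome 2, 9786087 to 9790335 in TAIR10.1), the enzyme that makes sinapoylmalate, was the most abundant gene of the set, above 97.4% of all genes in the tables. It was read at 122 and 119.9 RPKM in CNT1 and at 203 and 202 RPKM in CNT1-G283E, 1.67-fold lower in CNT1 (log2 -0.74 ± 0.037, SE; limma adjusted p = 1.92e-06). UGT84A2, the main sinapate glucosyltransferase, differed less, at 10.96 and 10.3 RPKM against 12.3 and 13.5 RPKM (log2 -0.26 ± 0.074, SE; limma adjusted p = 0.0177). That call was lost without CNT1 replicate 2 (-0.22, adjusted p = 0.124) and without CNT1-G283E replicate 2 (-0.20, adjusted p = 0.0688).

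UGT84A1, UGT84A3 and UGT84A4, glucosyltransferases of hydroxycinnamates, lie side by side on chromosome 4 between 8848801 and 8858678 in TAIR10.1, all on the minus strand, and did not move alike. UGT84A3 (AT4G15490) was read at 0.949 and 0.867 RPKM in CNT1 and at 33.5 and 19.2 RPKM in CNT1-G283E, from 50, 45, 1678 and 868 reads. The CNT1-G283E replicates differed from each other more than in any other gene of the sinapate group, yet both were far above CNT1. The mean was 29.1-fold lower in CNT1 (log2 -3.79 ± 0.215, SE; limma adjusted p = 3.47e-06), and the log2 value was -3.41 without CNT1-G283E replicate 1 and -4.18 without CNT1-G283E replicate 2. UGT84A4, its neighbour with 81.9% coding identity, was 2.26-fold lower, at 1.48 and 2.02 RPKM against 4.10 and 3.82 RPKM (limma adjusted p = 0.000631). UGT84A1 was not lower, with 20 and 28 reads in CNT1 and 18 and 15 in CNT1-G283E (limma adjusted p = 0.276 with no filter). UGT84A3 and UGT84A4 shared a run of 40 identical bases and UGT84A1 and UGT84A3 one of 30, and how reads matching several genes were treated is not given in the sources used here.

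Genes outside the set that feed the pathway were listed as well, with earlier results of these data known. Of 8 genes of phenylpropanoid entry (phenylalanine ammonia-lyase, C4H and 4-coumarate ligases) 7 were tested, and 6 were called lower and none higher, with a median of -0.60. The untested one, 4CL3, a 4-coumarate ligase named after its values were seen, lay the other way, at 1.04 and 0.948 RPKM in CNT1 against 0.637 and 0.577 RPKM, and with no filter it was called higher (log2 0.31 ± 0.074, SE; limma adjusted p = 0.0201). PAL4 was read at 18.1 and 19.1 RPKM in CNT1 and at 40.2 and 38.3 RPKM in CNT1-G283E (log2 -1.04 ± 0.054, SE; limma adjusted p = 2.25e-06), and PAL1 was 1.67-fold lower (limma adjusted p = 2.95e-06). Of 11 genes of sinapate supply and of the SNG1 family 10 were tested and all 10 were lower, with a median of -0.58. Over all genes tested, 29.0% were called lower. Several entry and supply genes also serve lignin synthesis, and the median of the 10 xylem and phloem markers, all lower as given above, was -0.84. The part of vascular tissue in these values was not tested.

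The tandem group of serine carboxypeptidase-like genes that includes SNG1 and SCPL10 on chromosome 2 was lower in CNT1 in every tested member. SCPL13 stood at 7.87 ± 0.179 RPKM in CNT1 against 28.32 ± 1.89 RPKM in CNT1-G283E (SD, n = 2; log2 -1.72 ± 0.068, SE; limma adjusted p = 5.95e-07), and SCPL11 was 3.01-fold lower (limma adjusted p = 5.58e-07). Coding identity of SNG1 to the 5 other genes ran from 82.6% to 86.1%, with shared runs of 29 to 59 bases. SCPL10 and SCPL9 shared a run of 88 bases. SCPL11 and SCPL12 had 92.3% coding identity and a shared run of 64 bases. Reads may thus be partly exchanged within these pairs.

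Flavonol synthase copies did not follow FLS1. FLS3 and FLS5 were lower, at log2 -0.99 ± 0.096 and -0.37 ± 0.043 (SE; limma adjusted p = 6.68e-05 and 0.000193), whereas FLS1 was higher. Of 7 genes of the seed coat and proanthocyanidin list only TTG2, a WRKY factor of trichomes and seed coat, was tested, and it was lower (log2 -0.46 ± 0.132, SE; limma adjusted p = 0.0186), having passed the filter through CNT1-G283E alone. TT12, a vacuolar transporter of proanthocyanidin precursors, and AHA10, a proton pump of the seed coat, were named after their values were seen and were under the filter. TT12 had 0.547 and 0.412 RPKM in CNT1 against 0.235 and 0.213 RPKM, and with no filter it was called higher (log2 0.27 ± 0.071, SE; limma adjusted p = 0.0276). AHA10 had 0.690 and 0.488 RPKM against 0.390 and 0.432 RPKM and did not pass with no filter (limma adjusted p = 0.166). Among 13 other regulators 12 were tested, with 2 higher and 5 lower. That is 58.3% called, near the 60.0% of all genes tested. LBD39 and LBD37, nitrate-induced repressors of anthocyanin genes, were higher at log2 0.42 ± 0.043 and 0.14 ± 0.049 (SE; limma adjusted p = 9.47e-05 and 0.0394). AT1G23390, a kelch F-box gene whose product marks chalcone synthase for breakdown, and MYB7, a relative of MYB4, were lower at -0.37 ± 0.042 and -0.37 ± 0.068 (SE; limma adjusted p = 0.000162 and 0.0022). HY5, a light-induced activator of CHS and of MYB genes, was named after its value was seen, and had mean levels of 17.9 RPKM in CNT1 against 18.0 RPKM (log2 -0.001 ± 0.066, SE; limma adjusted p = 0.987).

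**Figure D4:**
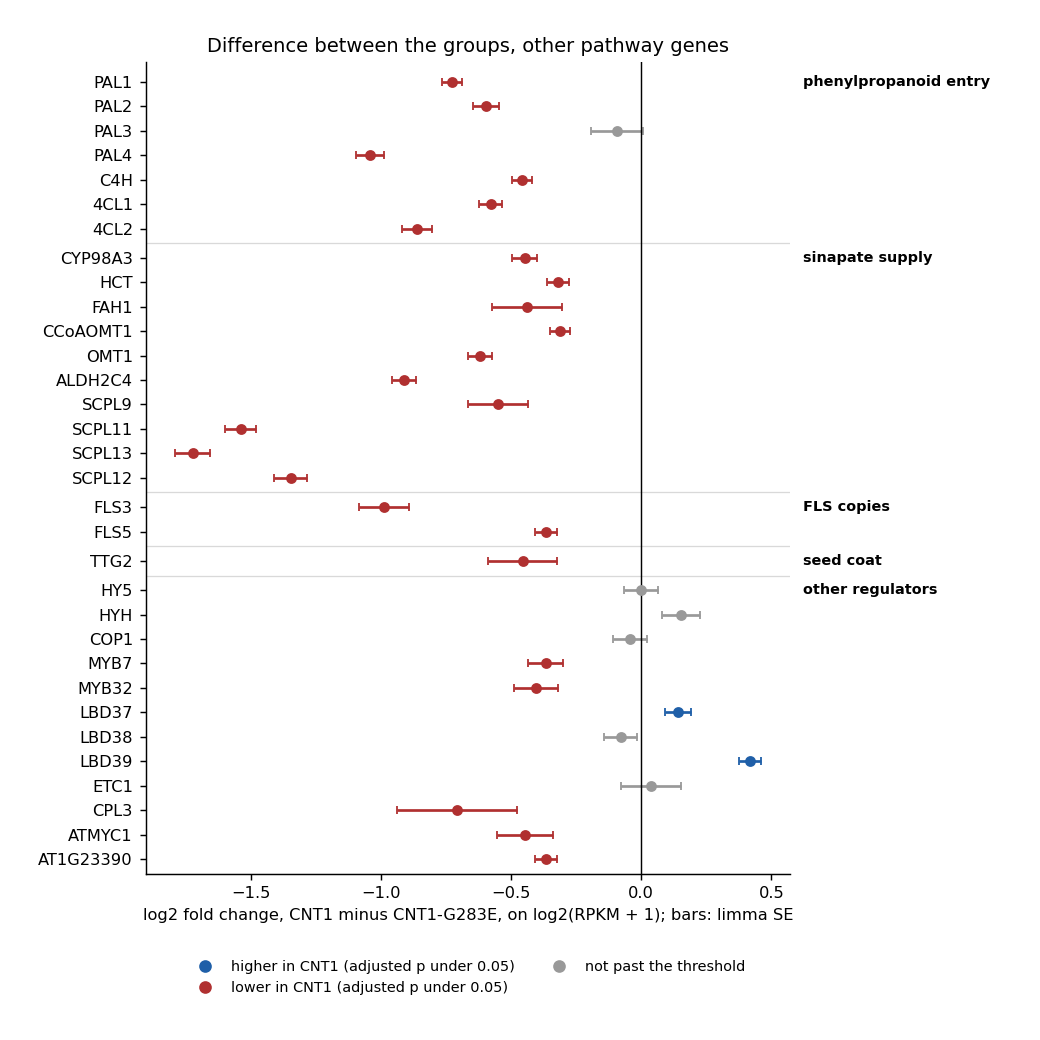
Difference between CNT1 and CNT1-G283E for tested genes of the pathway outside the set, as log2 fold change (points) with the limma standard error (bars), coloured by call as for the set. All tested entry and supply genes lay below 0, PAL3 among them without passing the test, while the other regulators lay on both sides.

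The 250 bases before the annotated start of each of the 39 genes were read from the TAIR10.1 genome of RefSeq and searched for the G-box CACGTG, a motif bound by bZIP and bHLH factors such as HY5 and the PIF proteins. They were also searched for 3 AC-rich MYB motifs, on both strands throughout. These were ACCTACC in its form AC-I, then the form AC-II spelled ACCAACC, and for AC-III the letters ACCTAAC. The G-box was found before 10 of the 39 genes, and before 6.58% of all 26709 protein-coding genes of the tables with such a window. An AC-rich motif was found before 6 of the 39 and before 6.12% of all. The G-box stood before 3 of the 5 genes called higher, 3 of the 13 called lower, none of the 9 not called and 4 of the 12 not tested. It was thus present on both sides of the comparison. In the windows of MYB75, MYBL2, MYB4, SNG1 and UGT84A3 neither kind of motif was present as these letters. Windows of 2 genes called higher (CHS and CHIL) and 3 called lower (DFR, UGT79B1 and SCPL10) are shown because they hold the G-box while the genes differ in direction. Each runs 5′ to 3′ towards the gene, with motifs in capitals, which are the G-box in all and also ACCTAAC on the opposite strand in CHIL and ACCAACC in SCPL10, the latter overlapping the G-box.
CHS (chr5:4488226-4488475, plus strand): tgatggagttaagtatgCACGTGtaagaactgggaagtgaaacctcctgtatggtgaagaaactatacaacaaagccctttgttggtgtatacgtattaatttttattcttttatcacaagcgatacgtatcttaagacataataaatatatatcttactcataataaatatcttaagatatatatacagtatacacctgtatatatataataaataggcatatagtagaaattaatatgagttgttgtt
CHIL (chr5:1563036-1563285, plus strand): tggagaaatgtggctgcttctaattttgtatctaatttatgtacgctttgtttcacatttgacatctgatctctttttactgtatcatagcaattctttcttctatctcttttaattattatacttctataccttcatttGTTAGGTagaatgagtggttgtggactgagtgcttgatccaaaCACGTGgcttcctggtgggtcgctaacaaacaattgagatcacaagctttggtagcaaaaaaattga
DFR (chr5:17166033-17166282, minus strand): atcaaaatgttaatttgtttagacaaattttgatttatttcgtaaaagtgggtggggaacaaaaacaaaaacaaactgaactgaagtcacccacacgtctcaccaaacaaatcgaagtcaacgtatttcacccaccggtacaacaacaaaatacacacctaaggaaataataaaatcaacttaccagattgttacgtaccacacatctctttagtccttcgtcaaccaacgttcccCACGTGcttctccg
UGT79B1 (chr5:21938397-21938646, minus strand): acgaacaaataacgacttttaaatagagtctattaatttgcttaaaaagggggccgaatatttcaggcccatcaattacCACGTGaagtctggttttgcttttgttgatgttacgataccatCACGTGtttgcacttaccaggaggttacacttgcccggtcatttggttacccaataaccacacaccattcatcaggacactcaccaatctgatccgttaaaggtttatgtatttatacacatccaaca
SCPL10 (chr2:9791916-9792165, plus strand): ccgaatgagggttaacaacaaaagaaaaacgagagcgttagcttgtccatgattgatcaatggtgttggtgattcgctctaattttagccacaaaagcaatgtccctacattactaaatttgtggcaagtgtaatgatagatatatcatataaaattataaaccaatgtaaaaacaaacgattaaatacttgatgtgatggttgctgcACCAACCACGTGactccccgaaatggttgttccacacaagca

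The G-box began 233 bases before the annotated start in CHS, 67 in CHIL, 14 in DFR, 171 and 128 in UGT79B1 and 36 in SCPL10. A match of letters describes the window and is neither a bound site nor a cause of a difference.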

How the data were processed

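Poly(A) RNA of 4 seedling libraries was sequenced with standard Illumina chemistry, per the labels' protocols. Bowtie2 2.2.2 and the TAIR10 genome are named per the submitters' processing notes. The authors deposited RPKM values for 27416 gene models, 1 per locus, per the file headers. The sources used here do not give read assignment, multiple matches or strand.

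The count test planned for files of counts was not used. Genes that reached 1 RPKM in 2 or more libraries were fitted with limma 3.58.1 (R 4.3.3) on log2(RPKM + 1), a linear model on the group with an intensity trend and Benjamini-Hochberg adjustment. The scale understates changes of low genes, and fold values are ratios of mean RPKM. Depth was taken as the read total that makes most low values whole at annotated transcript lengths (2077 to 2148 values per library, against at most 598 at the next total). At these depths all 24360 genes above 0 were whole reads within 0.001, 7087 of them at annotated transcript lengths and the others at fitted lengths, which fixes reads up to a whole-number factor. Recovered counts are thus derived values. Intervals (exact binomial) and the floor of 3 reads cover counting error only. Members, lists and motifs were chosen with earlier results of these data known. All members are accounted for, and of the other lists at most 2 called genes each way are named, by adjusted p. The script was run on simulated data with the same spread in both groups, which does not measure the error of the calls made here. Alternatives were pseudocount 0.1, no filter, a mean of at least 5 RPKM, quantile and median-of-ratios scaling, no trend, limma-voom, a replicate block and leaving out each library. Names, coordinates and sequences are from RefSeq TAIR10.1, which matched 26719 loci and all 39 members. Coding sequences were aligned with Biopython 1.88.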

Additional observations from a re-analysis of the deposited data

How the results depend on the processing

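Median-of-ratios and quantile scaling and a pseudocount of 0.1 left all calls of the 27 tested members as they were, and the median log2 fold change of all genes stayed between 0.001 and 0.036 in every setting. With a mean of at least 5 RPKM as the filter, 14 members were tested, and 3 were called higher and 6 lower. Of all 14404 genes tested with that filter, 4967 were called higher and 4270 lower. Among the members, 2 early genes were higher and 1 decorating gene lower, and 0 late genes and 0 activators were lower. With no filter 2 activators were lower. Limma-voom on recovered reads and the fit with the replicate block each added 1 decorating gene called higher, UGT78D1, and limma without the trend gave 2 repressors lower. Leaving out each library in turn gave 1 to 2 late genes lower, 0 to 1 decorating genes higher and 1 to 2 repressors lower, the cause of which was not tested. Signs turned only in genes that were not called, F3'H (-0.038 to 0.277 over the fits with 1 library left out), 3AT1 (-0.050 to 0.103) and TTG1 (-0.0032 to 0.147). The labels do not say that replicate numbers pair libraries, and the deviations of same-numbered libraries correlated at -0.02 across genes. The replicate block left 5791 genes higher and 5423 lower, against 5964 and 5566 without it. Depth limits the genes under 1 RPKM most, where few reads per group give wide counting intervals. The CNT1-G283E replicates differed from each other more than the CNT1 replicates, with a chi-square per gene of 4.52 against 1.72, where sampling noise alone gives about 1.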
